A study of Arabidopsis thaliana with 16 samples.

Results

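In Arabidopsis thaliana 46 probe sets had lower transcript levels when an activated form of the response regulator ARR1 was released into the nucleus. In wild type given the cytokinin N6-benzyladenine (BA) their means lay above a log2 difference of −0.2 from the transgenic line without this release. They were chosen from measured values among 9454 probe sets that reached a log2 level of at least 4 on at least 2 of 16 arrays, and made up 0.487% of these. Membership required 5 differences between group means. Dexamethasone (DEX) minus no DEX in the transgenic line had to be at or below −0.7 on the log2 scale in each of 2 media, with less than 0.6 between the media. BA-treated wild type minus the line without DEX had to be above −0.2 in each medium, and DEX minus no DEX in wild type had to lie between −0.5 and 0.5. These 5 differences are therefore given below as a description of the members, and no statement on the members is tested with them.

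The line was 35S::ARR1∆DDK:GR, in which the broadly active 35S promoter drives an ARR1 that lacks its regulatory DDK domain and is fused to the glucocorticoid receptor, so that DEX moves it into the nucleus. Seedlings of the line, in the Columbia-0 background, received paclobutrazol (PAC, 10 µM, 18 h) with 50 µM GA3 and 5 µM DEX for 3 h (ARR1_PAC_GA_DEX), PAC with DEX (ARR1_PAC_DEX), PAC with GA3 (ARR1_PAC_GA) or PAC alone (ARR1_PAC). Columbia-0 wild type received PAC, GA3 and 5 µM BA for 3 h (Col_PAC_GA_BA), PAC with BA (Col_PAC_BA), DEX alone (Col_DEX) or nothing (Col_mock), and each of the 8 groups held 2 arrays labelled as biological replicates. The labels gave the age of the seedlings as 6 days in one place and 5 days in another, named no separate cultures and described one line, so p-values measure the spread between these samples. No wild type with PAC and without BA was analysed here, and BA was set against the line without DEX, so that an effect of BA and a difference between genotypes cannot be told apart. The wild type with DEX had no PAC, so the check on DEX itself was made in another medium than the DEX treatments of the line.

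Cytokinins are perceived by histidine kinases, and a phosphorelay ends at type-B response regulators such as ARR1, which bind DNA and switch on, among others, the genes of the type-A response regulators that dampen the signal. Without its DDK domain ARR1 no longer depends on phosphorylation. PAC blocks gibberellin synthesis and lets DELLA proteins accumulate, and GA3 leads to their degradation, so the media with PAC alone and with PAC and GA3 stand for high and low DELLA levels.

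The response to both treatments can be read from RR16. This gene, which encodes a type-A response regulator and is not a member, had log2 levels of 10.10 and 10.29 in ARR1_PAC_GA_DEX and 9.88 and 9.90 in ARR1_PAC_DEX. Its levels were 7.46 and 7.34 in Col_PAC_GA_BA, 7.40 and 6.66 in Col_PAC_BA, 5.21 and 4.99 in ARR1_PAC_GA and 4.67 and 5.11 in ARR1_PAC. It had 5.08 and 5.64 in Col_DEX and 4.28 and 3.99 in Col_mock. It thus stood highest with DEX in the line, next with BA in wild type, and lower in the groups with neither, lowest in untreated wild type, with differences of 5.10 and 5.00 for DEX and of 2.30 and 2.13 for BA with and without GA3. In wild type its DEX difference was 1.22, against 0.05 for ARR15 and 0.23 for UGT76C2, the other cytokinin genes tested. By limma with Benjamini-Hochberg adjustment 1 of these 3 genes was called higher with DEX in wild type, beside 0.656% of all probe sets. The correlation between replicates was 0.968 to 0.985 over probe sets, which are not independent, array medians lay between 3.08 and 3.12 and the floor of the scale was 2.36. Of the markers of organs, 1 of 8 for root (PYK10) and 1 of 7 for shoot (RCA) were among the probe sets tested, and none of 3 markers of handling was. DEX minus no DEX in the line was 0.03 with PAC and 0.26 with PAC and GA3 for PYK10, and −0.01 and −0.12 for RCA. BA-treated wild type minus the line was −0.28 and 0.34 for PYK10 and −0.42 and −0.64 for RCA in the same media. RCA was called lower by limma in this comparison with PAC and GA3, beside 1.71% of all probe sets. Whether a shift in the makeup of the seedlings had a part in the members' differences was not tested. In whole seedlings fewer cells of a type and less RNA per cell cannot be told apart.

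Of the 46 members, 31 had exactly 1 gene in the platform's annotation, 8 of them with a gene symbol and 23 with a locus name only, and 15 carried no gene name here. Both DEX conditions alone were met by 555 probe sets, and 532 of these had responses within 0.6 of each other. The condition on wild type left 418, of which the 46 members were 11.0%. The other 372 met the same conditions on DEX but had at least 1 BA difference at or below −0.2, 227 of them in both media and 145 in 1. All 46 members would also have passed the filter on dim probe sets without the DEX-treated arrays of the line, so none passed only through the DEX-treated line. On all 4 DEX-treated arrays of the line 9 members were below 4, near the floor, where the scale compresses differences, and 3 members had means over 9 across all arrays.

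Median levels over the members separated the DEX-treated line from everything else. The median member had a log2 level of 4.62 in ARR1_PAC_GA_DEX and 4.65 in ARR1_PAC_DEX. It was at 5.83 in Col_PAC_GA_BA, 5.71 in Col_PAC_BA, 5.67 in ARR1_PAC_GA, 5.71 in ARR1_PAC, 5.61 in Col_DEX and 5.78 in Col_mock. The 6 groups other than the DEX-treated line thus lay within a narrow band, and the heat map of all members shows the same by array. The rule fixed much of this, because it bounded the line with DEX and wild type with BA against the line without DEX. It set no bound between untreated wild type and the line. For the other 372 described above the medians were 5.04 in ARR1_PAC_GA_DEX and 4.97 in ARR1_PAC_DEX, against 6.08 in ARR1_PAC_GA and 6.07 in ARR1_PAC.

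**Figure D1:**
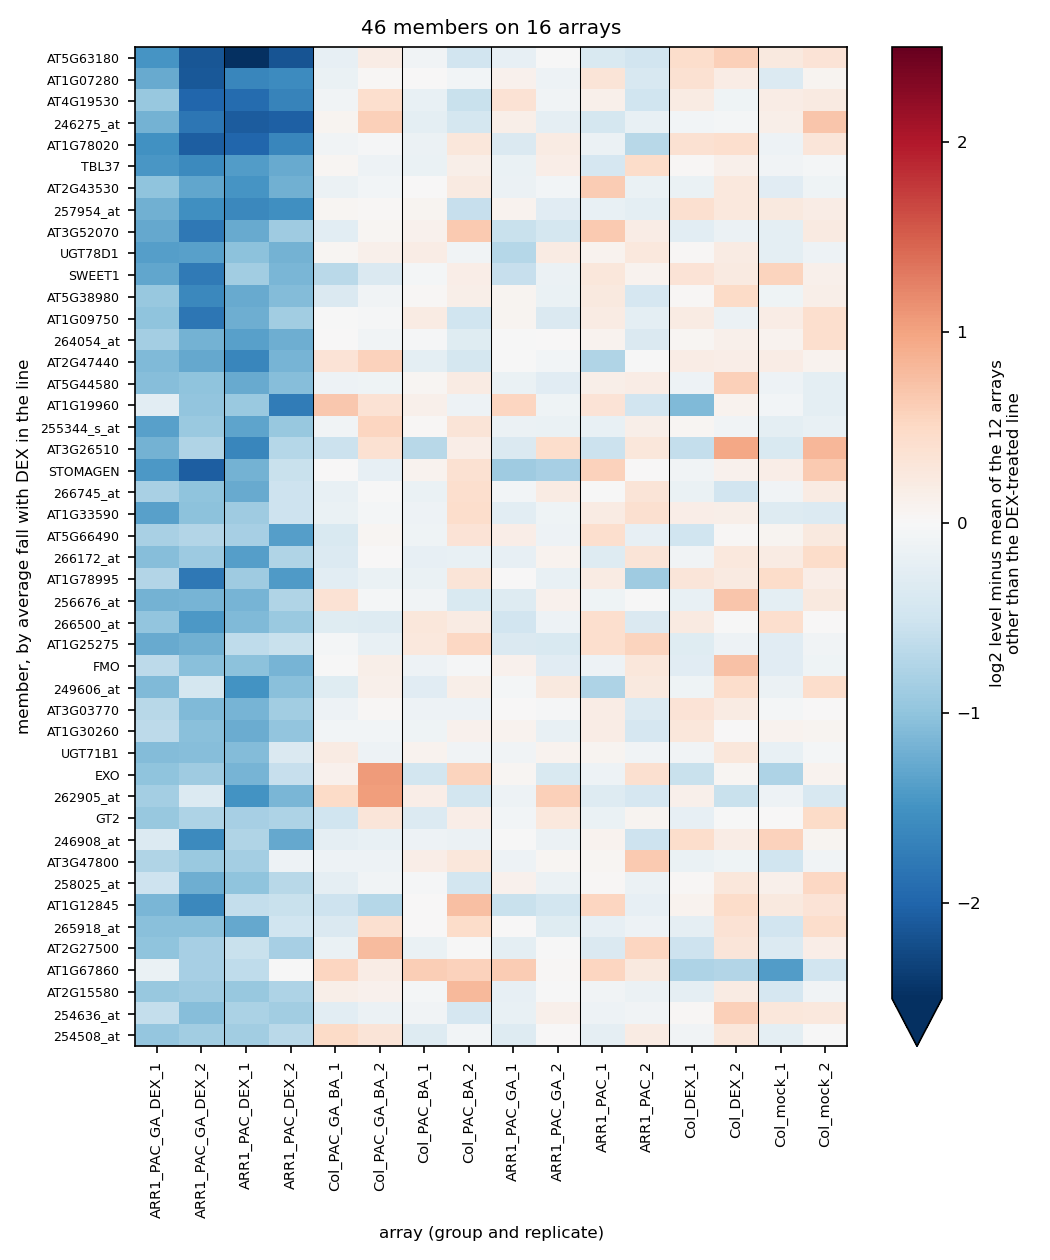
Heat map of the 46 members (rows, ordered by their average DEX difference in the line) on 16 arrays (columns, 2 per group). Colour gives the log2 level minus the member's mean over the 12 arrays other than the 4 DEX-treated arrays of the line, and the blue block at the left, where values were lowest, is those 4 arrays.

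DEX minus no DEX in the line ranged from −2.19 to −0.71 with PAC (median −1.05) and from −1.71 to −0.76 with PAC and GA3 (median −0.94). Averaged over both media the members were 1.69- to 3.85-fold lower with DEX, with a median of 2.00-fold, and 24 were at least 2-fold lower. The difference was larger in PAC for 27 members and larger with GA3 for 19. By limma with Benjamini-Hochberg adjustment 34 of 46 passed in PAC, beside 8.31% of all probe sets that were called lower, and 35 passed in PAC and GA3, beside 7.66%. Since the rule used both differences, nothing is read from these counts. The DEX-treated arrays lay below those without DEX, with no overlap, for 46 of 46 members in each medium, against 27.6% of all probe sets in PAC and 30.5% in PAC and GA3.

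For 36 of 46 members the 4 DEX-treated arrays of the line lay below all 12 other arrays, which was true of 4.42% of all probe sets and of 161 of the other 372. The rule fixed much of this too, because it bounded the BA groups against the line without DEX. It bounded wild type with DEX only against untreated wild type, so where those arrays stood against the line was not fixed. The 10 exceptions were STOMAGEN, EXO, AT1G19960, AT1G78995, AT3G47800, AT1G12845, AT1G67860 and 3 probe sets without a gene name.

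BA-treated wild type minus the line without DEX ranged from −0.20 to 0.76 with PAC and GA3 (median 0.02) and from −0.20 to 0.49 with PAC (median −0.03). Both differences were negative in 12 members and both positive in 11. The BA arrays lay below the line's arrays without overlap for 1 member in PAC and GA3 and for 0 in PAC, beside 33.8% and 22.9% of all probe sets, and above them for 9 and 4 members, beside 24.1% and 18.4%. As a description, since the rule bounded these differences from below, limma called 0 members for BA, lower or higher, in either medium, at an unadjusted p under 0.05 there were 3 higher with PAC and GA3 and 0 otherwise, and of all probe sets 1.71% were called lower and 2.1% higher with PAC and GA3 and 1.1% and 1.31% with PAC. The DEX-treated arrays of the line lay below the BA arrays of the same medium for 46 of 46 members, beside 25.2% of all probe sets with PAC and GA3 and 20.1% with PAC. The rule largely fixed this count of members, since it bounded both groups against the same arrays of the line without DEX. For the other 372 the median BA differences were −0.40 and −0.46, while their median DEX differences in PAC and GA3 and in PAC, −0.97 and −1.02, were close to the members'. How far the members and the other 372 differ was not tested, since the rule set them apart on BA.

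The precision of a BA difference limits what the absence of a fall can mean. Its standard error was 0.25 for the median member and its 95% interval reached 0.55 to either side. For 28 of 46 members both intervals lay above −0.7, the limit used for DEX, and for the rest the interval of at least 1 medium reached it. The rule kept only differences above −0.2, so these intervals are centred on selected values and may lie too high. The count is therefore a description and excludes a fall with BA for no member. DEX minus no DEX in wild type ranged from −0.49 to 0.49 with a median of 0.05, and limma called 0 members (1 higher at an unadjusted p under 0.05), a count that the rule's bounds largely fix, beside 0.0846% of all probe sets lower and 0.656% higher. In the plot of both responses the members and the other 372 form a continuous cloud, with no gap at −0.2. The members lie to the right of this limit in both panels, and 145 of the other 372 do so in 1 panel.

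**Figure D2:**
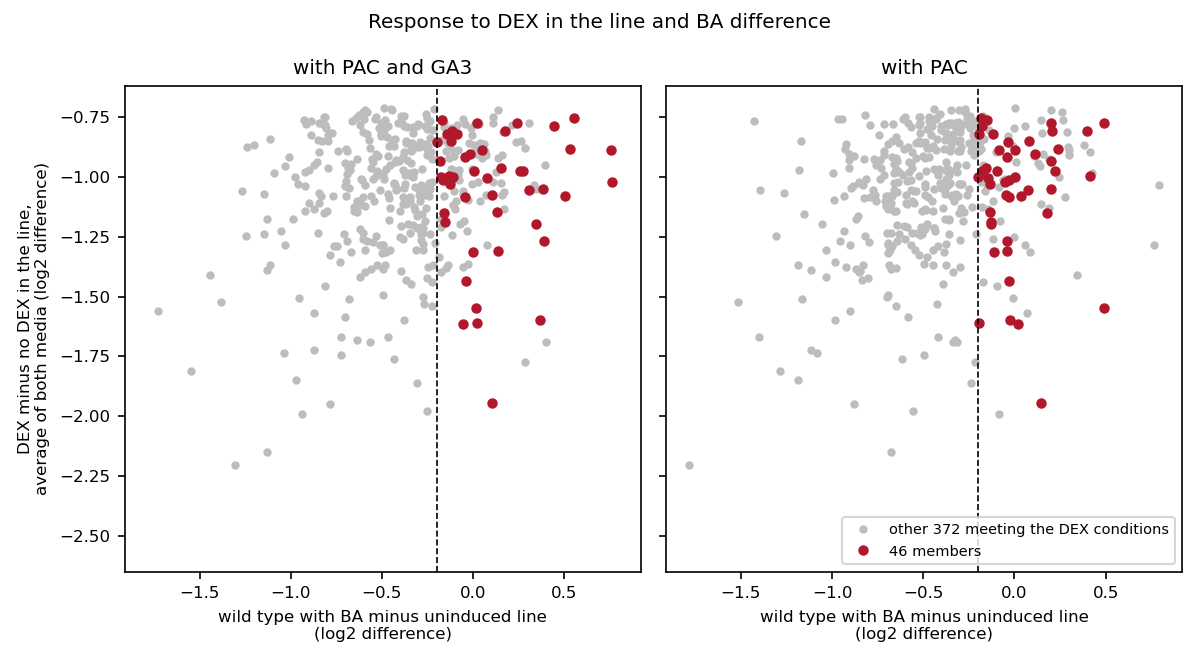
DEX minus no DEX in the line (y axis, log2, average of both media) against BA-treated wild type minus the line without DEX (x axis, log2) with PAC and GA3 (left) and with PAC (right). Red points are the 46 members and grey points the other 372 probe sets that met the conditions on DEX, and the dashed line marks the limit of −0.2 that members had to exceed in both panels.

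Values just inside and just outside the limits were close for 3 of 4 conditions. UGT71B1 had a smaller DEX difference of −0.71 and stayed in, and the unnamed probe set 252468_at with −0.69 stayed out. For the lower BA difference, 266172_at was in at −0.198 and TBL45, of the same family as the member TBL37, was out at −0.202. For DEX in wild type AT1G33590 was in with 0.49 and 261873_at out with 0.50, and for the gap between media AT5G44580 was in with 0.53 and AT5G03120 out with 0.70. With each of the 16 arrays left out in turn the rule returned 35 to 61 probe sets. Of the 46 members 1, the shared probe set 255344_s_at, was returned each time and 13 at least 14 times, and AT3G26510 was returned 5 times.

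Among members with a role in the cell wall or growth, AT5G63180, which encodes a member of the pectate lyase family that cuts de-esterified pectin, had the lowest average DEX difference of all members. Its log2 levels were 4.65 and 3.99 in ARR1_PAC_GA_DEX against 5.92 and 6.12 in ARR1_PAC_GA, and 3.05 and 3.97 in ARR1_PAC_DEX against 5.74 and 5.65 in ARR1_PAC. With BA it had 5.93 and 6.32 in Col_PAC_GA_BA and 6.04 and 5.65 in Col_PAC_BA, and it had 6.57 and 6.72 in Col_DEX and 6.38 and 6.48 in Col_mock. All arrays of the DEX-treated line were low, those with BA overlapped those of the line without DEX, and the wild type arrays without PAC were the highest. DEX differences were −1.70 with GA3 and −2.19 without, a 3.85-fold lower level on average, and BA differences were 0.11 and 0.15.

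TBL37 belongs to the TRICHOME BIREFRINGENCE-LIKE family, whose members acetylate cell wall polysaccharides. It had 3.62 and 3.47 in ARR1_PAC_GA_DEX against 4.90 and 5.24 in ARR1_PAC_GA, and 3.67 and 3.81 in ARR1_PAC_DEX against 4.65 and 5.53 in ARR1_PAC. Its levels were 5.12 and 4.94 in Col_PAC_GA_BA, 4.89 and 5.22 in Col_PAC_BA, 5.10 and 5.19 in Col_DEX and 4.98 and 5.01 in Col_mock. The 12 arrays outside the DEX-treated line lay between 4.65 and 5.53, and the 4 DEX-treated ones below all of them. The DEX differences were −1.53 with GA3 and −1.35 without, and the BA differences −0.04 and −0.03, among the flattest of the set.

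EXO (EXORDIUM), a brassinosteroid-responsive gene that promotes leaf and root growth, varied more. It had 5.22 and 5.34 in ARR1_PAC_GA_DEX against 6.27 and 5.83 in ARR1_PAC_GA, and 5.07 and 5.64 in ARR1_PAC_DEX against 6.09 and 6.61 in ARR1_PAC. In wild type it had 6.32 and 7.28 with PAC, GA3 and BA, 5.76 and 6.77 with PAC and BA, 5.67 and 6.28 with DEX and 5.45 and 6.31 untreated. The replicates of every wild type group were at least 0.6 apart, and the DEX-treated line overlapped untreated wild type. Its BA differences were 0.76 with GA3 and −0.09 without, the first among the largest of the set. AT2G27500, a glycosyl hydrolase of the family that holds the beta-1,3-glucanases, had the smaller DEX differences of −0.80 with GA3 and −0.78 without.

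In sugar and secondary metabolism, SWEET1 encodes a glucose transporter. Its levels were 2.95 and 2.49 in ARR1_PAC_GA_DEX against 3.67 and 4.11 in ARR1_PAC_GA, and 3.38 and 3.11 in ARR1_PAC_DEX against 4.55 and 4.34 in ARR1_PAC. It had 3.58 and 3.89 in Col_PAC_GA_BA, 4.21 and 4.43 in Col_PAC_BA, 4.60 and 4.48 in Col_DEX and 4.80 and 4.38 in Col_mock. Within the line with DEX, the line without DEX and wild type with BA the arrays with GA3 were below those with PAC and without GA3, and the DEX differences were similar in both media, −1.18 with GA3 and −1.20 without. Its average BA difference, −0.14, was the lowest among the named members, and its lowest arrays stood close to the floor.

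A pair of UDP-glycosyltransferases of family 1 were members. UGT78D1, which adds rhamnose to flavonols, had 5.31 and 5.34 in ARR1_PAC_GA_DEX against 5.98 and 6.90 in ARR1_PAC_GA, and 5.67 and 5.51 in ARR1_PAC_DEX against 6.79 and 6.96 in ARR1_PAC. The wild type arrays ranged from 6.74 to 6.83 in Col_PAC_GA_BA and from 6.61 to 6.87 in Col_PAC_BA, with 6.71 and 6.90 in Col_DEX and 6.45 and 6.57 in Col_mock. Apart from 1 array of ARR1_PAC_GA at 5.98, no array outside the DEX-treated line was under 6.45. UGT71B1 had DEX differences of −1.07 with GA3 and −0.71 without, and BA differences of 0.05 and 0.01. FMO, listed as a flavin monooxygenase, had DEX differences of −0.76 and −1.16 in the same media, and AT3G47800, which encodes a galactose mutarotase-like protein, had −0.80 and −0.84.

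A further group has roles in signalling, defence or gene regulation. STOMAGEN, the secreted peptide made in the leaf interior that raises the density of stomata, had 6.23 and 5.61 in ARR1_PAC_GA_DEX against 6.78 and 6.83 in ARR1_PAC_GA, and 6.48 and 7.11 in ARR1_PAC_DEX against 8.24 and 7.67 in ARR1_PAC. It had 7.68 and 7.45 in Col_PAC_GA_BA, 7.76 and 8.05 in Col_PAC_BA, 7.58 and 7.78 in Col_DEX and 7.84 and 8.31 in Col_mock. Here ARR1_PAC_GA was as low as ARR1_PAC_DEX, so the DEX-treated line did not stand below all others. The DEX differences were −0.88 with GA3 and −1.16 without, and the BA differences 0.76 and −0.05, the first of which was set against the low ARR1_PAC_GA arrays.

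AT4G19530, a disease resistance gene of the TIR-NBS-LRR class, had 5.16 and 4.12 in ARR1_PAC_GA_DEX against 6.47 and 6.03 in ARR1_PAC_GA, and 4.18 and 4.44 in ARR1_PAC_DEX against 6.23 and 5.61 in ARR1_PAC. All arrays of wild type lay between 5.54 and 6.53, above the DEX-treated line. The DEX differences were −1.61 in both media, and the BA difference with PAC was −0.20, at the edge of the rule. AT2G43530, which encodes a defensin-like protein, had 6.63 and 6.33 in ARR1_PAC_GA_DEX against 7.50 and 7.57 in ARR1_PAC_GA, and 6.16 and 6.44 in ARR1_PAC_DEX against 8.28 and 7.47 in ARR1_PAC. Its 8 wild type arrays lay between 7.35 and 7.90, close to the line without DEX except for the array at 8.28.

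AT1G78020, whose product belongs to the FCS-like zinc finger proteins that bind the energy-sensing kinase SnRK1, had 6.12 and 5.57 in ARR1_PAC_GA_DEX against 7.27 and 7.84 in ARR1_PAC_GA, and 5.65 and 6.01 in ARR1_PAC_DEX against 7.48 and 6.94 in ARR1_PAC. It had 7.54 and 7.60 in Col_PAC_GA_BA, 7.48 and 7.92 in Col_PAC_BA, 8.02 and 8.05 in Col_DEX and 7.51 and 7.95 in Col_mock. The DEX-treated line lay below all other arrays by a wide margin, with DEX differences of −1.71 with GA3 and −1.38 without, and its BA difference in PAC, 0.49, was among the highest. GT2, a trihelix DNA-binding factor, had a narrower spread, with 4.71 to 4.88 over the 4 DEX-treated arrays of the line and 5.16 to 6.12 over the other 12. The remaining members of this group were AT1G33590 and AT3G03770, which encode leucine-rich repeat proteins, AT2G15580, a RING-type protein, and AT1G09750, an aspartyl protease, with DEX differences in PAC of −1.01, −0.94, −0.74 and −1.03.

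Several of the strongest members have no role that could be given with certainty. AT1G07280 had 4.29 and 3.43 in ARR1_PAC_GA_DEX against 5.66 and 5.41 in ARR1_PAC_GA, and 3.91 and 3.98 in ARR1_PAC_DEX against 5.86 and 5.13 in ARR1_PAC. Its 8 wild type arrays lay between 5.19 and 5.93, above all 4 DEX-treated ones, and its average difference was a 3.06-fold lower level. AT3G52070 and AT2G47440 were 2.41-fold and 2.11-fold lower on average with DEX. The 3 members with means over 9, AT1G25275, AT5G38980 and AT5G44580, were 1.96-, 2.22- and 2.11-fold lower, from levels of 9.83 to 11.04 in the line without DEX, far from the floor. Among the 15 unnamed probe sets the average DEX difference was lowest in 246275_at, at 3.03-fold, and 257954_at, at 2.48-fold.

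**Figure D3:**
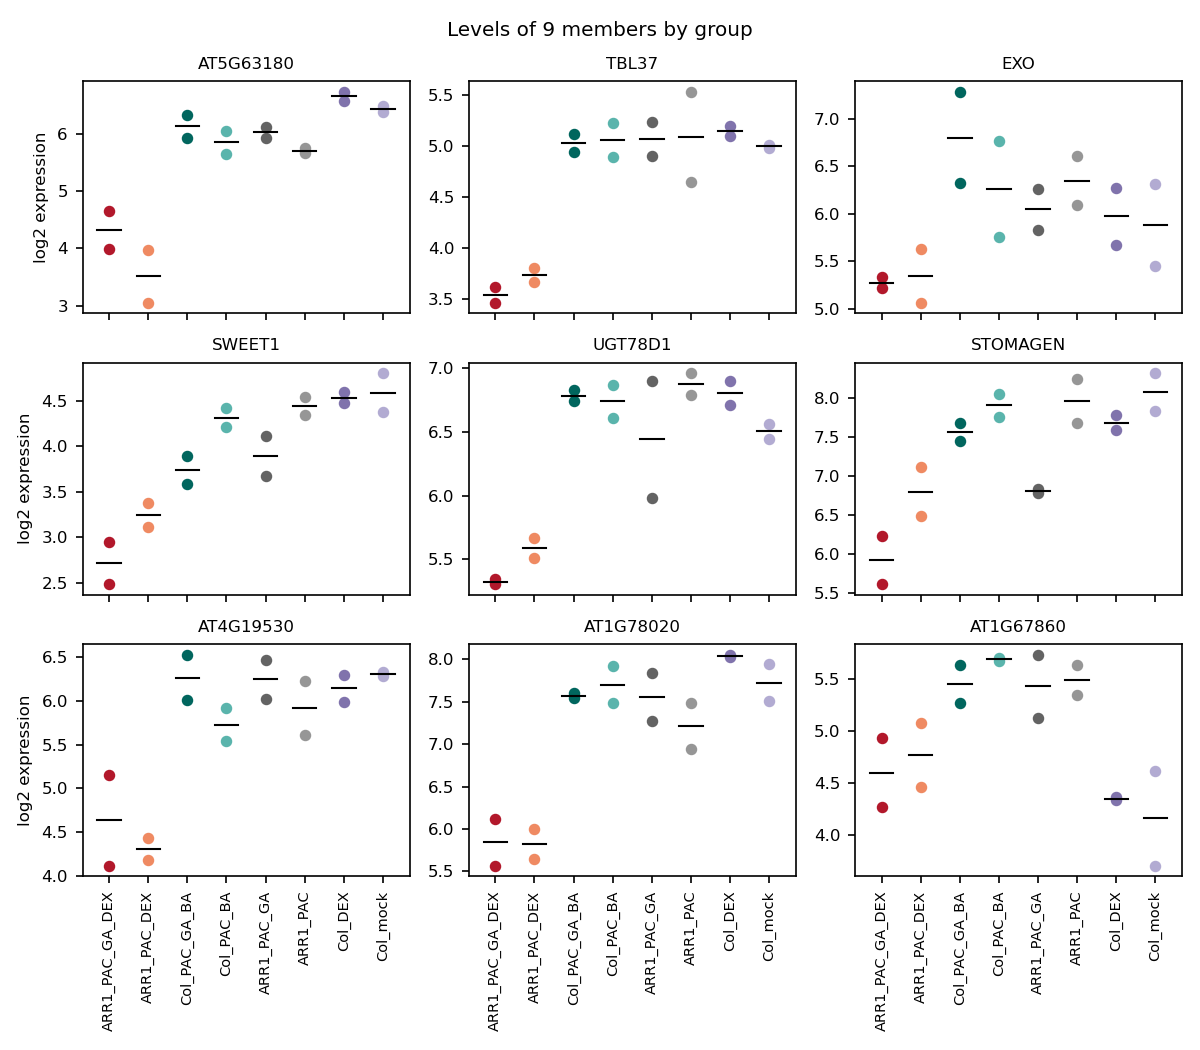
Log2 levels (y axes, each with its own range) of 9 members by group (x axis), the DEX-treated line at the left and untreated wild type at the right. Points are arrays, 2 per group, and bars are means. In 6 panels the points of the DEX-treated line are the lowest, while in those of EXO, STOMAGEN and AT1G67860 they overlap other groups.

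Levels of most members in the line with PAC were near those of untreated wild type. ARR1_PAC minus Col_mock ranged from −0.75 to 1.33 with a median of −0.12, and its size was over 0.5 in 10 members, 4 of them higher and 6 lower. No test was made, since these differences share arrays with the rule, and PAC and genotype cannot be told apart in them. AT1G67860 was the widest apart. It had 4.93 and 4.27 in ARR1_PAC_GA_DEX against 5.73 and 5.12 in ARR1_PAC_GA, and 4.45 and 5.08 in ARR1_PAC_DEX against 5.63 and 5.34 in ARR1_PAC. In wild type it had 5.63 and 5.27 with PAC, GA3 and BA, 5.70 and 5.67 with PAC and BA, 4.33 and 4.36 with DEX and 3.70 and 4.61 untreated. Wild type without PAC was thus lower than every array with PAC and no DEX, in either genotype, and the DEX-treated line lay between the groups or within the range of wild type without PAC. Its differences from untreated wild type were 1.53 for Col_PAC_BA and 1.33 for ARR1_PAC. The other 3 members over 0.5 for ARR1_PAC were AT1G25275, AT3G47800 and AT1G33590, at 0.68, 0.64 and 0.64, with 0.58, 0.52 and 0.49 for Col_PAC_BA. In the other direction AT5G63180 had −0.73, AT1G78995 −0.65, AT1G78020 −0.52 and AT2G47440 −0.51 for ARR1_PAC minus Col_mock. The unnamed 246275_at and 246908_at had −0.75 and −0.53.

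GA3 was not itself a condition of the rule, but its arrays were. The difference with GA3 in the line, averaged over with and without DEX, had a correlation of 0 by design with both DEX differences, and of −0.354 and 0.354 with the BA differences in PAC with GA3 and in PAC, because it shares the line's arrays without DEX with them. In wild type with BA the same correlations were 0.5 and −0.5. The mean of the GA3 difference over the line with DEX, the line without DEX and wild type with BA had a correlation of 0 with all 5 differences of the rule, and only this mean, which was chosen after the data were seen, is used as a test of the members.

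By limma with Benjamini-Hochberg adjustment over all probe sets, 5 of 46 members were lower with GA3 in this mean, AT1G25275, AT1G12845, STOMAGEN, SWEET1 and AT3G52070, and 0 were higher. Among all probe sets 1.02% were called lower and 1.22% higher, and of the other 372 there were 7 lower and 9 higher. At an unadjusted p under 0.05 there were 8 members lower and 4 higher, beside 5.63% and 13.5% of all probe sets. The members' median difference was −0.01, against 0.02 over the other 372 and 0.06 over all probe sets tested. Without 1 array the count of members called lay between 1 and 7. It was 1, AT1G25275, without replicate 2 of ARR1_PAC_GA_DEX, ARR1_PAC_DEX, Col_PAC_GA_BA or Col_PAC_BA or either replicate of ARR1_PAC_GA, and 1 also with no filter on dim probe sets. It was 2 without replicate 1 of ARR1_PAC, and 3 without replicate 1 of Col_PAC_GA_BA or either replicate of Col_DEX. Only AT1G25275 passed under each of the 23 alternatives, and each of the other 4 calls was lost without 1 or another of these arrays.

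AT1G25275 had a mean difference of −0.66 ± 0.08 (SE, limma adjusted p = 0.00310, between 0.00157 and 0.0149 under the alternatives). It had 9.23 and 9.29 in ARR1_PAC_GA_DEX against 9.84 and 9.94 in ARR1_PAC_DEX, 10.13 and 10.11 in ARR1_PAC_GA against 10.91 and 11.04 in ARR1_PAC, and 10.44 and 10.31 in Col_PAC_GA_BA against 10.76 and 11.00 in Col_PAC_BA. The arrays with GA3 lay below those without it in all 3 states. The differences were −0.74 in the line and −0.50 in wild type.

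AT1G12845 had a mean difference of −0.83 ± 0.16 (SE, limma adjusted p = 0.0209, between 0.00734 and 0.0796 under the alternatives). It had 3.02 and 2.53 in ARR1_PAC_GA_DEX against 3.56 and 3.60 in ARR1_PAC_DEX, 3.59 and 3.70 in ARR1_PAC_GA against 4.70 and 3.96 in ARR1_PAC, and 3.63 and 3.43 in Col_PAC_GA_BA against 4.16 and 4.90 in Col_PAC_BA. Again no state showed an overlap, though the lowest arrays stood near the floor.

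For STOMAGEN the mean difference was −0.79 ± 0.16 (SE, limma adjusted p = 0.0242, between 0.0161 and 0.0895 under the alternatives). Within each of the 3 states its arrays with GA3 were the lower ones, as printed above, with −0.88 in the line with DEX, −1.15 in the line without DEX and −0.34 in wild type. SWEET1 had −0.55 ± 0.13 (0.0421, between 0.0291 and 0.113), and AT3G52070 had −0.62 ± 0.15 (0.0479, between 0.0272 and 0.127). The next named members, which did not pass, were AT1G33590 with −0.41 (limma adjusted p = 0.0806, but 0.0387 with the replicate number as a block, 0.0482 after quantile normalization and 0.0246 without replicate 1 of Col_PAC_BA) and, upward, AT2G47440 with 0.45 (0.0869) and AT5G63180 with 0.47 (0.144). AT2G47440 passed without replicate 2 of ARR1_PAC (0.57, adjusted p = 0.0235), and the unnamed 262905_at, at 0.74 (0.0558), passed without replicate 1 of Col_PAC_BA (0.85, 0.0332).

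Taken by genotype, the GA3 differences are a description, since they are not independent of how the members were chosen. In the line limma called 2 members lower, STOMAGEN and AT1G25275, and 0 higher, beside 0.91% and 1.93% of all probe sets, and at an unadjusted p under 0.05 there were 6 lower and 3 higher, beside 6.21% and 16%. In wild type with BA it called 0, beside 0.0212% lower and 0.0106% higher, and at an unadjusted p under 0.05 there were 4 lower and 4 higher, beside 4.53% and 6.19%. The contrast in wild type rests on 4 arrays and that in the line on 8, and their median standard errors were 0.25 and 0.18. The difference between the genotypes in the response to GA3 was called for 0 members by limma, as for 0 of all probe sets, with 1 member lower and 0 higher at an unadjusted p under 0.05, beside 4.64% and 9.81%. The sign of the GA3 difference was the same in line and wild type for 31 of 46 members, and in 24 its size was under 0.3 in both. These counts were not made over all probe sets, so nothing particular to the members is read from them.

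**Figure D4:**
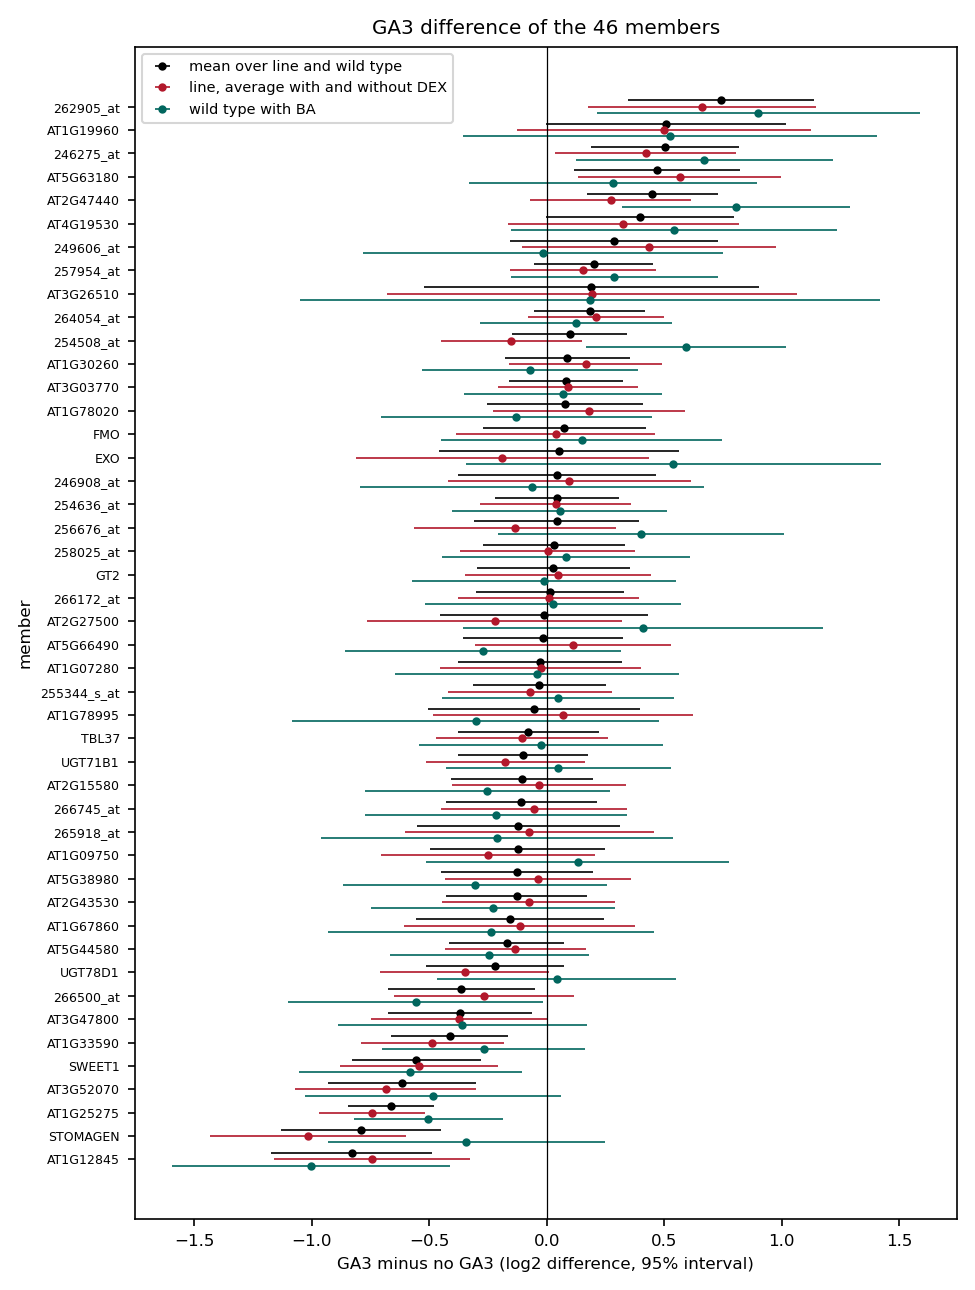
GA3 minus no GA3 for each of the 46 members (rows), as a log2 difference with its 95% interval from limma (x axis). Black is the mean over the line with DEX, the line without DEX and wild type with BA, each with equal weight. Red is the line averaged over with and without DEX, and green is wild type with BA. Members are ordered by the mean, with AT1G12845 at the foot, and most intervals include 0.

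None of the members was on any of 9 lists of pathway genes, for cytokinin response, sucrose and starch, sugar starvation, dehydration, jasmonate and defence, nutrient transport, gibberellin, auxin and photosynthesis. Of their 155 genes 16 were tested, from 7 lists, so the lists say little about the members. All 3 tested cytokinin genes were called higher with DEX in both media and with BA in both. The sucrose-phosphate synthase gene ATSPS4F was called lower with DEX, with differences of −2.02 with GA3 and −1.94 without, but had BA differences of −0.25 and −0.56 and so was no member. COR15B, a cold- and dehydration-induced gene, had DEX differences of −1.26 and −1.39 and BA differences of 0.56 and 0.30 in the same media. It met these conditions of the rule, and only its difference of 1.27 with DEX in wild type, over the limit of 0.5, kept it out. COR15A was out for the same reason, with −0.82 and −0.85 for DEX, 0.25 and 0.42 for BA and 1.22 in wild type. LTI30 and COR47, also on the dehydration list, had DEX differences of 0.56 and −0.13 in PAC. By limma none of the 4 genes tested from this list was called with DEX in the line.

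The 31 named members lay on all 5 chromosomes, with 14, 5, 5, 3 and 4 on chromosomes 1 to 5, and the closest neighbours, AT1G30260 and UGT78D1, were 27 protein-coding genes apart in the TAIR10.1 annotation.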

How the data were processed

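Transcripts were measured on 16 Affymetrix ATH1 arrays of whole seedlings. The log2 values deposited by the authors are GCRMA expression values per probe set, a method named in the submitters' processing notes that corrects background, normalizes across arrays and summarises probes, and its version is not given in the sources used here. After 64 controls were left out 22746 probe sets remained, and the 9454 that reached 4 on the log2 scale on 2 or more arrays entered the tests. Genes were named only where the platform table gives exactly 1 (13513 of 22746, with 503 having several and 8730 none). A model of group means was fitted to all 16 arrays with limma 3.58.1 in R 4.3.3 (8 residual degrees of freedom, 4.66 from the prior), with two-sided tests and Benjamini-Hochberg adjustment over all probe sets tested, called at adjusted p under 0.05. The study's methods name a Z-score transformation without saying how replicates enter, so limma was used.

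The fit was tested on simulated data with known changes, drawn independently for each array, whereas same-numbered arrays of the real data deviated together. Changes of 0.5 on the log2 scale were recovered in 54% for the mean GA3 difference, 31.5% in the line and 6.7% in wild type. For changes of 1 these were 97.9%, 94.7% and 71.6%, so the absence of calls in wild type says little about small differences. Precision is limited by the number of arrays.

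The members, gene lists and tests were chosen with earlier results of these data known. Named genes were the lowest and highest members by DEX, BA and GA3 differences, those at a limit and those of one family. AT1G67860, AT1G78995, AT3G03770, AT2G27500, FMO and the unnamed probe sets were added after their values were seen. Alternatives were other filters, normalizations, limits of the rule, untreated wild type as the BA comparator, the replicate number as a block, eBayes with trend and robust settings, only the compared groups, and each array left out. A mean of the GA3 difference was taken over the line with DEX, the line without DEX and wild type with BA, each with equal weight. Below it is called the mean over line and wild type. This mean, which is uncorrelated with the 5 differences of the rule, and its alternatives were added after the data were seen. A search of promoters was not run. Plots were made in Python 3.11.15 using matplotlib 3.10.9.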

Additional observations from a re-analysis of the deposited data

How the results depend on the processing

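The rule returned 46 members, and 35 to 61 with 1 array left out. It returned 23 with a filter of at least 6 on at least 2 arrays, 17 with DEX differences at or below −1.0, 11 with BA differences above 0, and 91 with untreated wild type as the BA comparator, of which 24 were among the 46. With no filter it returned 47, with quantile normalization 56 and with centring on the 75th percentile 50, and 36 with DEX responses within 0.3 of each other. GA3 averaged over line and wild type called 5 members, 1 with no filter, 3 with the filter of at least 6 (23 members left), 3 with only the groups of the comparison, and 1 to 7 with 1 array left out. GA3 in the line called 2 members, 1 with no filter, 1 with only the groups of the comparison, and 1 to 5 with 1 array left out (1 without replicate 2 of ARR1_PAC_GA_DEX, either replicate of ARR1_PAC_GA or replicate 2 of ARR1_PAC_DEX, 4 without replicate 1 of ARR1_PAC_DEX, 5 without either replicate of Col_PAC_BA). GA3 in wild type called 0, and 0 to 1 with 1 array left out. No alternative turned the direction of a called member. The cause of these shifts was not tested, beyond the stricter limits, which leave fewer candidates.

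With the replicate number as a block the mean over line and wild type called 6 members, adding AT1G33590, GA3 in the line called 4, adding AT1G33590 (adjusted p = 0.0412) and AT3G52070 (0.0465), and GA3 in wild type called 0. Same-numbered arrays deviated together, at r over 0.1, in all 6 pairs of line groups (0.114 to 0.412) and in 21 of 28 pairs of all groups (−0.331 to 0.480). The labels do not say what a number marks, so whether the numbers pair the samples is unknown and the fits without the block were kept.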
